A study of Bos taurus with 15 samples.

Results

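The comparison set 4 libraries of bovine retinal endothelial cells treated with succinylacetone against 4 control libraries, 8 of the 15 libraries of the series. The members were all the libraries of 1 deposited count table, SA1 to SA4 and Con1 to Con4 by their titles. Retinal endothelial cells line the blood vessels of the retina, and every library was made from polyA RNA of cattle cells. The remaining 7 libraries belong to an siRNA experiment and were not used here. The labels give the treatment only as SA or con, which the study's design text spells out as succinylacetone and its control. The dose and duration of treatment, what the control cells received, and the donor animals are not stated in the labels used here. The labels do not say whether libraries of 1 group were grown as separate cultures. The p-values therefore measure no more than the spread between these libraries, which may be technical.

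Succinylacetone blocks aminolevulinate dehydratase, the heme synthesis enzyme that joins aminolevulinic acid molecules into porphobilinogen, and it is used to lower heme in cultured cells. Heme is the iron-holding group of the mitochondrial cytochromes, of catalase, of endothelial nitric oxide synthase and of soluble guanylate cyclase. Cells sense it through the repressor BACH1 and the kinase HRI, and low heme is known to raise ALAS1, the first enzyme of the pathway. By its title, the study asks how heme inside cells bears on vessel growth in the retina. The count table names genes by Ensembl ID without symbols, and none of these IDs was in the reference gene table. The genes of heme synthesis, other pathways and cell type markers were therefore not analysed here, and the labelled cell type was not checked against marker genes. Where genes are named, it is by ID, and what they encode is not stated.

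The libraries held between 18842196 and 31736292 counts, and between 14608 and 15360 genes were detected in each. The number of genes detected was 14903 ± 207 in control and 15097 ± 231 with succinylacetone (SD, n = 4 each; two-sided exact permutation p = 0.286, where 4 against 4 can reach 0.0286). Of the 27607 genes in the table, 10254 had no count in any library, 4626 had too few counts to be tested, and 12727 were tested. The untested genes held 0.0387% of all counts.

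A treated library differed from a control library more than libraries of 1 group differed from each other. The root mean square difference in log2 CPM (counts divided by the scaled total of their library) from a library to those of the other group averaged 0.398 to 0.460 over the 8 libraries. To the libraries of its own group it averaged 0.322 to 0.367 in control and 0.301 to 0.326 with succinylacetone. Control replicate 1 was the farthest from its own group, at 0.367. Genes averaging 5 CPM or more had a median SD of log2 CPM of 0.0899 among control libraries and 0.0776 among treated ones. Only 29 of these 9973 genes in control and 20 with succinylacetone spanned more than 2-fold between the lowest and the highest library of a group.

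A small set of abundant transcripts varied between libraries of both groups. Among the 20 genes with the most counts, 3 had a highest share at least 1.5 times the lowest within a group, a rule set after the values were seen. Together they took 2.73%, 3.69%, 5.76% and 4.11% of the counts in control replicates 1 to 4. In succinylacetone replicates 1 to 4 they took 2.58%, 6.17%, 3.25% and 6.31%. The groups overlapped, with means of 4.07% ± 1.26 and 4.58% ± 1.94 (SD, n = 4 each; two-sided exact permutation p = 0.771). None of the 3 was called, and with log2 fold changes of 0.09, 0.14 and 0.34 their 95% intervals were wide, from -1.03 to 1.22, from -1.03 to 1.30 and from -0.18 to 0.86. With these genes left out, 3734 genes changed, of which 3717 were among the 3736 changed with them in.

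**Figure D1:**
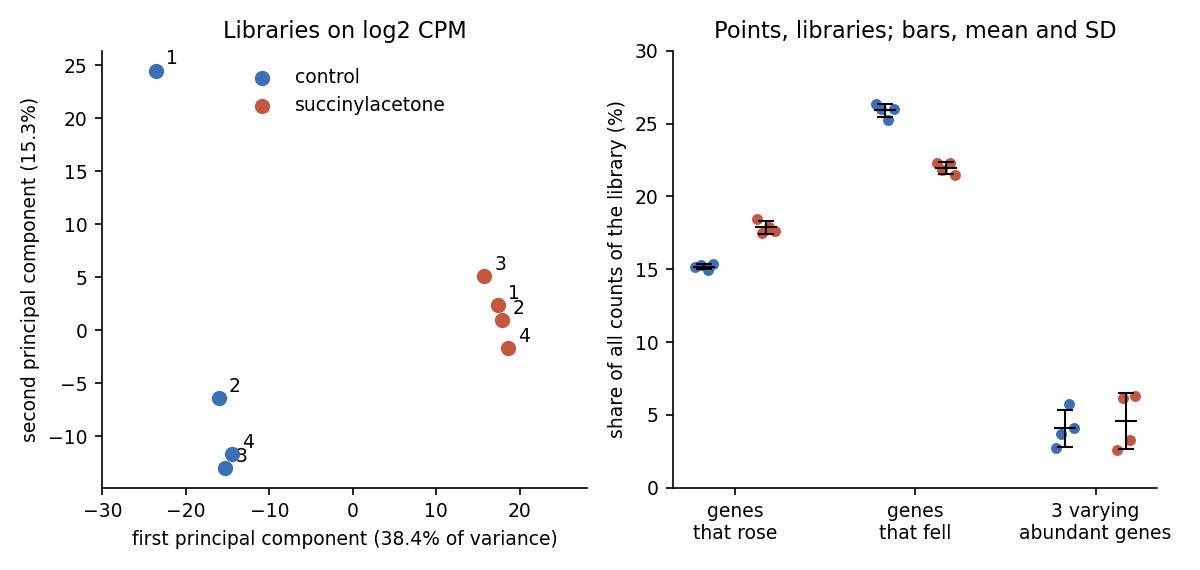
Left, the 8 libraries on the first and second principal components of log2 CPM (unitless scores), numbered by replicate. The treated libraries lie to the right on the first component, and control replicate 1 lies apart on the second. Right, the share of all counts of a library (percent) in the genes that rose, the genes that fell and the 3 varying abundant genes, with points for libraries and bars for the mean and SD of 4. The shares of the first 2 sets do not overlap between groups, as their choice from the same libraries fixes, and the share of the 3 varying genes does.

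Succinylacetone moved a broad part of the measured transcriptome by small amounts, and its larger effects were falls. Calls were made with edgeR's quasi-likelihood test over all genes tested, at an adjusted p (Benjamini-Hochberg) under 0.05 and with no fold minimum. By this rule 1718 genes rose (13.5%) and 2018 fell (15.9%). The scaling of libraries sets the bulk of genes near no change, and the median log2 fold change of all genes was 0.01. Genes that rose changed by a median of 1.196-fold, with a middle range from 1.14-fold to 1.30-fold. Genes that fell changed by a median of 1.24-fold, from 1.15-fold to 1.41-fold. In bulk RNA, a lower level per cell and fewer cells of a kind that express the gene cannot be told apart.

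The excess of falls lay in the larger changes. Among called genes that changed less than 1.1-fold, 133 rose and 126 fell, so rises were 51.4%. From 1.1-fold to 1.25-fold they were 50.9%, with 980 rises and 946 falls. From 1.25-fold to 1.5-fold 433 genes rose and 591 fell, and rises were 42.3%. From 1.5-fold to 2-fold 117 genes rose and 249 fell. By the scaling used here, small rises and falls were thus about equal in number, and the falls outnumbered the rises above 1.25-fold. With upper-quartile factors 1851 genes rose and 1880 fell over all sizes, and these ranges of fold change were not counted again. At 4-fold or more the order was the other way, with 5 rises and 3 falls, each in a gene averaging under 5 CPM except for 1 of the falls.

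**Figure D2:**
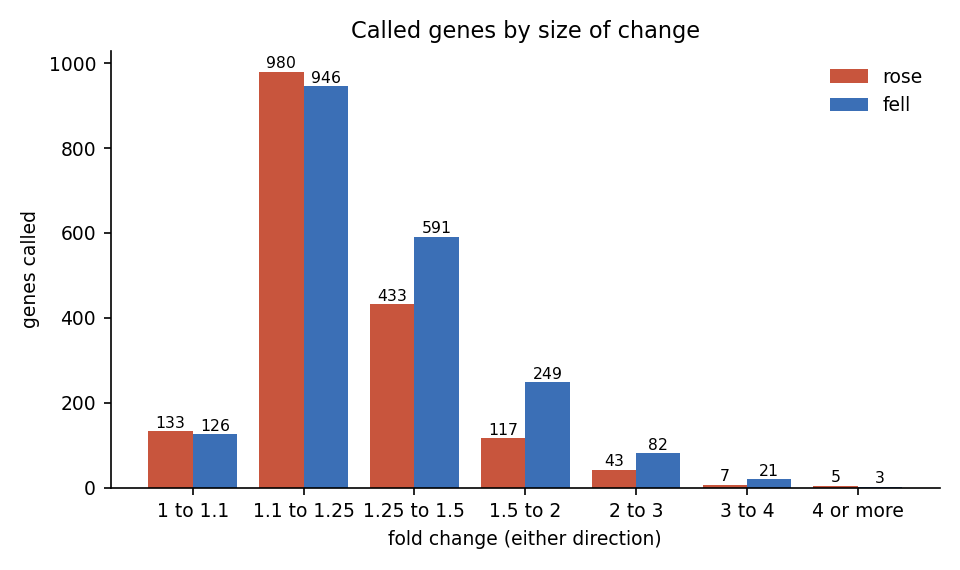
Number of called genes (vertical axis) by fold change in either direction (horizontal axis), with genes that rose and genes that fell as separate bars. The bars are nearly level up to 1.25-fold, and from 1.5-fold to 2-fold 249 falls stand beside 117 rises.

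The same difference was found in genes averaging 5 CPM or more over the 8 libraries. Of the 9973 genes averaging 5 CPM or more, 1561 rose and 1818 fell. By at least 1.5-fold, 49 of them rose and 190 fell, which are 0.385% and 1.49% of all genes tested. Over the other tools, scalings, filters and left-out libraries that were tried, these counts lay between 40 and 65 for rises and between 183 and 207 for falls. At 2-fold or more, 1 such gene rose (0.00786%) and 30 fell (0.236%). All of these had treated libraries wholly beyond the control libraries, as did 27.8% of all genes tested. The 30 that fell had mean control levels between 7.05 and 413 CPM, with a median of 19.5 CPM.

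The 30 falls were of like size in every treated library. The median over these genes of the log2 difference from the control mean was -1.23, -1.13, -1.15 and -1.27 in succinylacetone replicates 1 to 4. In control replicates 1 to 4 it was -0.01, 0.00, 0.04 and -0.01. The 30 largest rises chosen in the same way, from 1.56-fold to 2.003-fold, gave 0.78, 0.71, 0.70 and 0.76 in the treated libraries. In control they gave -0.05, 0.02, 0.00 and 0.05. The genes were chosen on these same libraries and for no overlap between the groups, which fixes that every treated library lies on the same side, so the values describe their size and are not a test.

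Beyond the largest change, the falls were also the larger at every rank looked at. Among called genes of at least 5 CPM without overlap, 1216 rose (9.55%) and 1529 fell (12.0%). The tenth largest fall was 2.48-fold and the tenth largest rise 1.76-fold. At rank 100 the fall was 1.66-fold and the rise 1.41-fold. The 100 largest falls had a median control level of 22.4 CPM and a median treated level of 12.4 CPM. The 100 largest rises went from a median of 12.7 CPM to 18.7 CPM.

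**Figure D3:**
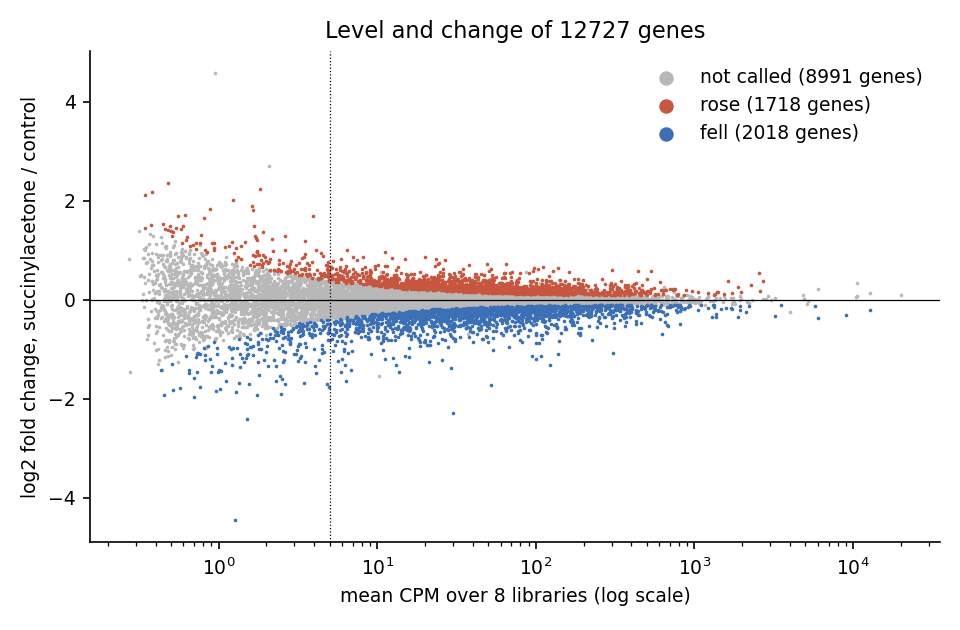
Each point is 1 of the 12727 genes tested, with its mean CPM over the 8 libraries (horizontal, log scale) and its log2 fold change (vertical). Right of the dotted line at 5 CPM, genes that fell reach farther from 0 than genes that rose, down to -2.28 against 1.002.

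How many genes were called followed how well they were measured. CPM is not corrected for transcript length, so bins of CPM order genes by their counts. In 10 equal bins of mean CPM, the share called rose from 8.18% in the lowest, up to 1.60 CPM, to 45.4% in the highest, from 150.1 CPM. The median standard error of the log2 fold change dropped from 0.380 to 0.0398 across the same bins. Called genes of the lowest bin changed by a median of 2.30-fold in each direction. Those of the highest bin rose by a median of 1.12-fold and fell by 1.14-fold. In the lowest bin all 46 called rises and all 58 called falls were at least 1.5-fold. With its larger standard error a small change could hardly be called there. The median sizes of called genes therefore do not compare the response between levels.

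With the scaling used here, falls were at least as frequent as rises in 9 of the 10 bins. In the exception, from 34.0 to 50.8 CPM, 222 genes rose and 220 fell. Over all levels, RLE factors gave 1747 rises and 1985 falls, and upper-quartile factors gave 1851 rises and 1880 falls. The bins were not counted with those factors. In the highest bin 251 rose (19.7%) and 327 fell (25.7%). In the bin from 14.9 to 22.8 CPM, 1 gene rose and 32 fell by at least 1.5-fold. The adjoining bins were less uneven, with 11 rises and 34 falls below it and 6 rises and 22 falls above it. Of the 2051 genes averaging 100 CPM or more, 6 rose and 22 fell by that much. None of these 6 rises and 5 of these 22 falls reached 2-fold. The median log2 fold change of a bin lay between -0.01 and 0.05, so the bins were not shifted as a whole.

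**Figure D4:**
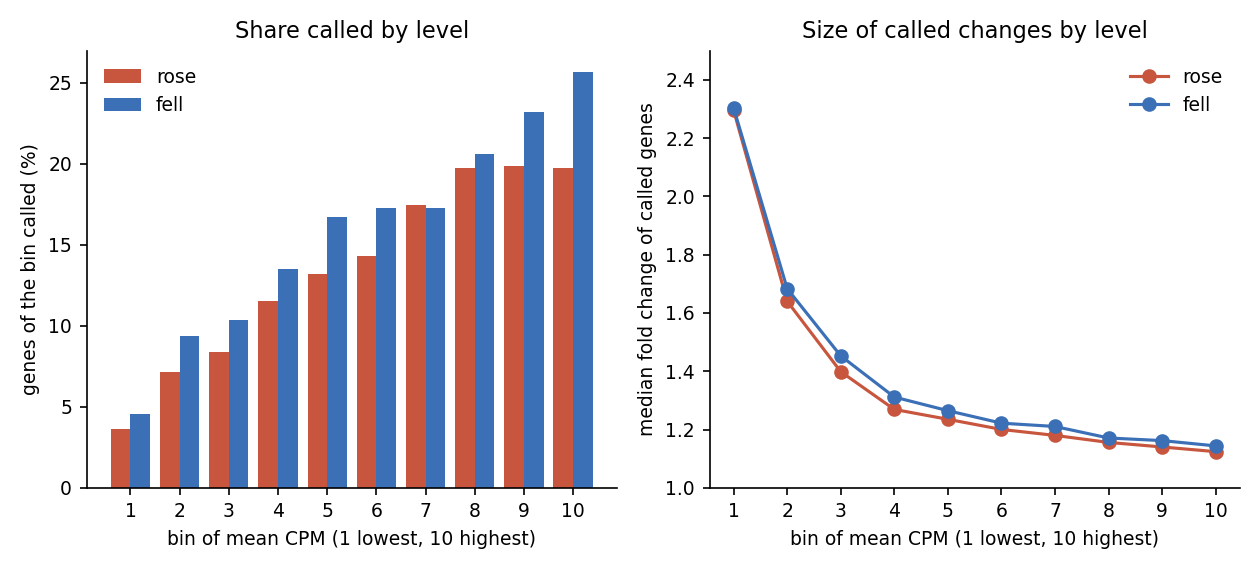
Left, the share of genes called (percent) in 10 equal bins of mean CPM, with bars for genes that rose and genes that fell. Right, the median fold change (vertical axis) of the called genes of each bin. The share called climbs from 8.18% (both directions) to 45.4% while the median change drops from 2.30-fold to 1.12-fold for rises and 1.14-fold for falls. In the low bins a change had to be larger to be called.

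Measured as a part of the RNA pool, the genes that fell changed by a mean of -3.93 percentage points. The genes that rose changed by 2.69 percentage points. The genes that fell held 26.4%, 26.0%, 25.2% and 26.0% of all counts in control replicates 1 to 4. They held 22.3%, 21.8%, 22.3% and 21.5% in succinylacetone replicates 1 to 4. The mean went from 25.9% ± 0.469 to 22.0% ± 0.399 (SD, n = 4 each). The genes that rose went from 15.2% ± 0.165 to 17.9% ± 0.440 (SD, n = 4 each). These sets were chosen on the same libraries and with the scaling used here, so no test was made. The 2018 genes that fell held more of the counts in control than the 1718 that rose. The differences in share therefore do not compare how strongly the sets changed. Shares add up to a fixed total, so a gain in 1 set is not independent of a loss in another.

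No difference between the groups was detected in the share of counts that the most abundant genes took. The 10 genes with the most counts took 10.3% ± 1.22 of a control library and 10.5% ± 1.94 of a treated one (SD, n = 4 each; two-sided exact permutation p = 0.829). The difference of 0.177 percentage points turned to -0.304 without control replicate 1, to -0.387 without succinylacetone replicate 2 and to -0.367 without succinylacetone replicate 4. Without the 3 varying abundant genes, the 10 most abundant of the rest took a share that was lower with succinylacetone by a difference of -0.320 percentage points (two-sided exact permutation p = 0.0571, n = 4 each). Of the 10 genes with the most counts, the 3 varying ones included, 4 fell, by at most 1.28-fold, and none was called as a rise. The intervals of the 3 varying genes leave room for larger changes. Of the 100 most abundant genes 16 rose and 25 fell, and the largest changes were 1.46-fold among rises and 1.28-fold among falls.

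The intervals of the fold changes show which sizes of change the data leave room for. For 137 genes (1.08%) the 95% interval, not adjusted for the number of genes, lay wholly beyond a 1.5-fold fall, and for 32 (0.251%) wholly beyond a 1.5-fold rise. Tested against a change of 1.2-fold in place of 0, with edgeR's glmTreat, 470 genes fell (3.69%) and 154 rose (1.21%) at an adjusted p under 0.05. Among the 8991 genes that were not called, 5089 (56.6%) had an interval within 1.25-fold in both directions, and 7047 (78.4%) within 1.5-fold. For the other uncalled genes the interval reached beyond 1.5-fold, so these data leave room for a change of that size. Of the called genes, 545 had an interval within 1.2-fold.

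Genes without a count in 1 group but with a count in every library of the other were few and had few counts. Of the genes with 0 counts in all 4 control libraries, 10 had at least 1 count in each treated library, with at most 57 counts summed over the treated libraries. Of those with 0 counts in all treated libraries, 8 had at least 1 count in each control library, with at most 45 counts summed. None of these 18 genes passed the filter on low counts, so none was tested.

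The 4 genes given by ID are, in each direction, the largest fold change and the largest change in CPM among called genes averaging 5 CPM or more without overlap. ENSBTAG00000043553 had the largest fall. Its level was 56.0, 46.5, 48.5 and 49.2 CPM in control replicates 1 to 4 and 9.07, 9.96, 13.5 and 8.64 CPM in succinylacetone replicates 1 to 4. The highest treated library thus lay far below the lowest control library. The log2 fold change was -2.28 (SE 0.110, 95% interval -2.51 to -2.05, edgeR adjusted p = 4.31e-11), a 4.86-fold fall. The next largest fall in this set was 3.30-fold, so the gene stood apart from the rest. With any 1 library left out its log2 fold change lay between -2.45 and -2.21.

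ENSBTAG00000008300 lost the most CPM and was the seventh most abundant gene tested. It had 9333, 10454, 9512 and 10451 CPM in control replicates 1 to 4. The treated libraries had 8049, 8706, 7360 and 7989 CPM in the same order. The groups did not overlap, and the gap between the nearest libraries, control replicate 1 and succinylacetone replicate 2, was smaller than the range within either group. The log2 fold change was -0.31 (SE 0.0467, 95% interval -0.41 to -0.21, edgeR adjusted p = 2.22e-05), a 1.24-fold fall. The mean dropped from 9938 ± 599 to 8026 ± 550 CPM (SD, n = 4 each). Its change was not shown to exceed 1.2-fold (glmTreat adjusted p = 0.497).

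ENSBTAG00000005104 had the largest fold rise of this set, at a low level. It averaged 4.29 CPM in control and 8.66 CPM with succinylacetone, so it passed the minimum of 5 CPM through its treated libraries. Among genes averaging under 5 CPM, called rises reached 5.11-fold and called falls 21.8-fold. Its counts were 132, 104, 107 and 76 in control replicates 1 to 4 and 246, 179, 224 and 232 in succinylacetone replicates 1 to 4. In CPM these were 4.62, 4.77, 4.19 and 3.59 against 7.57, 9.74, 8.10 and 9.24. The treated libraries all lay above the highest control library. The log2 fold change was 1.002 (SE 0.136, 95% interval 0.72 to 1.28, edgeR adjusted p = 1.14e-06). The next largest rise was 1.96-fold. The gene that rose most was therefore near others in its set, unlike the gene that fell most.

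ENSBTAG00000013468 gained the most CPM and ranked 26 by level. It had 1869, 2147, 2020 and 2300 CPM in control replicates 1 to 4. With succinylacetone it had 3308, 3295, 2570 and 3001 CPM. The groups did not overlap, and succinylacetone replicate 3 lay nearest to control. The means were 2084 ± 183 CPM in control and 3043 ± 346 CPM in treated cells (SD, n = 4 each). The log2 fold change was 0.55 (SE 0.100, 95% interval 0.31 to 0.79, edgeR adjusted p = 0.00640). This was the largest fold rise among the 100 most abundant genes. Without succinylacetone replicate 3 the log2 fold change was 0.62, the highest with any library left out. Its change was not shown to exceed 1.2-fold once p was adjusted over all genes tested (glmTreat adjusted p = 0.0851). The 95% interval, which lay above that size, is not adjusted for the number of genes.

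**Figure D5:**
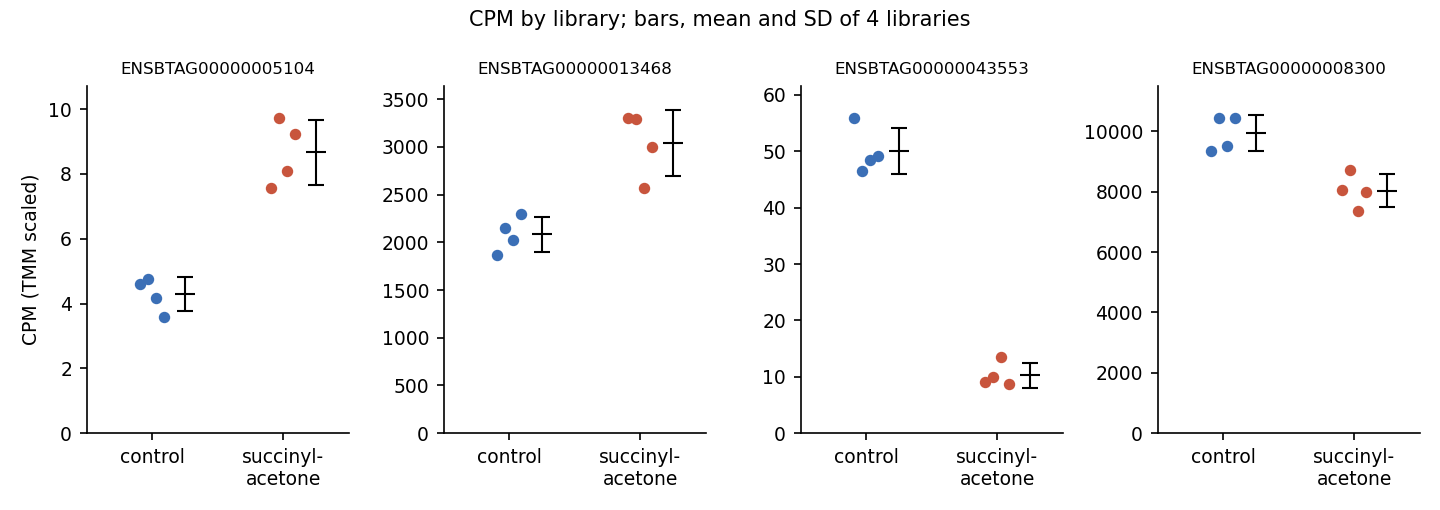
CPM (vertical axis, from 0) of 4 genes in each control and succinylacetone library, with points for libraries and bars for the mean and SD of 4. The groups do not overlap in any of the 4 genes, and the widest separation is that of ENSBTAG00000043553, with 46.5 CPM in the lowest control and 13.5 CPM in the highest treated library.

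The genes were called on these same libraries, so how far each library lay beyond the other group is a description and not a test. Each treated library lay above all control libraries in 90.5% to 95.6% of the genes that rose, and below all of them in 91.2% to 96.7% of the genes that fell. Each control library lay beyond all treated libraries in 90.6% to 94.4% of the rises and 94.1% to 96.4% of the falls. No overlap between whole groups was found for 77.4% of the rises and 83.6% of the falls, and for 5.83% of the genes not called. The number called was lowest without succinylacetone replicate 1, at 2987, and without succinylacetone replicate 4, at 3022, and highest without control replicate 1, at 3658. With 1 library left out in turn, 2414 of the 3736 genes were called in all 8 fits. Of the 3736, 3451 were also called by both DESeq2 and limma voom.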

How the data were processed

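Cattle retinal endothelial cells were profiled by polyA RNA-seq. The authors deposited raw counts per Ensembl gene ID, made with featureCounts per the submitters' processing notes, which also name DESeq2 and list the builds hg38 and ARS-UCD1.2 without a role. Strand setting and annotation release were not stated, so overlapping, antisense and near-identical genes may share reads.

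The 8 libraries were fitted in R 4.3.3 with edgeR 4.0.16 (filterByExpr, TMM factors, robust quasi-likelihood test; Benjamini-Hochberg adjusted p under 0.05). Standard errors were the absolute log2 fold change over the square root of F. The biological coefficient of variation was 0.0658. Tests were checked on simulated counts drawn independently from the fitted dispersions, which checks the code and not these libraries. Alternatives used DESeq2 1.42.0, limma 3.58.1, other factors, filters and thresholds, a replicate block and left-out libraries. Replicate pairs differed by more than sampling noise. Their chi-square per degree of freedom was 3.75 to 46.2, or 3.69 to 12.4 without the 3 varying abundant genes. Each library was counted as a sample, but these differences do not show separate cultures or independent samples. Without symbols, the naming rule gave 2 rises and 2 falls, by fold and by CPM. Members, lists and rules were chosen with earlier results of these data known. Of the IDs, 0 matched the reference gene table.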

Additional observations from a re-analysis of the deposited data

Results flagged for a closer look

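Control replicate 1 lay apart from its group. Its average distance to the rest of the control group, as the root mean square difference of log2 CPM, was 0.367. The same measure was between 0.322 and 0.324 for the other 3 libraries of the group. The gap made up 0.938 of the range of the group, above the limit of 0.829 for 4 values. It was the only such library among 28 sets of 4 values looked at, and chance alone marks about 1 in 20 such sets. Without it, 3658 genes were called, 1644 that rose and 2014 that fell, and 3259 of them were among the 3736 called with it. At least 1.5-fold changes in genes of at least 5 CPM were then 40 rises and 189 falls.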

How the results depend on the processing

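Succinylacetone changed from 2987 to 4032 genes in 16 of 19 alternatives, and from 2987 to 3658 with 1 library left out. Stricter thresholds lower the count by construction: 2397 genes passed an adjusted p of 0.01, 161 passed a 2-fold minimum and 624 passed glmTreat against 1.2-fold. The replicate block gave 3837 genes, 3661 of them among the 3736; same-numbered libraries correlated in their deviations at -0.0154 to 0.0569, 1 of 4 treated libraries correlated best with its own number, and the labels do not say that numbers mark shared handling. Rises were 46.0% of calls, and 46.8% and 49.6% with RLE and upper-quartile factors. The count of larger changes was added after seeing the data, as was leaving out the 3 varying abundant genes. Of 68 alternative values for the 4 IDs, 66 kept their direction and passed the threshold; the other 2 are the glmTreat values in the report. The difference in the share of the 10 most abundant genes ran from -0.387 to 0.836 percentage points with 1 library left out, and was -0.320 (two-sided exact permutation p = 0.0571, 4 libraries each) without the 3 varying genes; the cause was not tested. Alternatives for gene lists were not run. At low counts, depth limits what can be seen: 8.18% of the lowest bin was called.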
